A study of Mus musculus with 20 samples.

Results

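The comparison described here is the exit from 2i: mouse embryonic stem cells held at day 0 against the same lines 4 days after the switch to epiblast stem cell medium. Of the 20 small RNA libraries of the series, 8 belong to it, 4 at day 0 and 4 at day 4, chosen by the day in their labels. They come from 2 lines, PGK (female) and E14 (male), each with 2 differentiation experiments, named diff2 and diff3. Line and sex cannot be told apart, since each sex is 1 line, and the labels name no genetic change in either. Day 0 cells were grown in 2i medium, and day 4 cells on fibronectin in N2B27 medium that contained Activin A and Fgf2, at the time when wells become confluent and are first split. In both lines the diff3 day 0 library carries the cell type label ESCs-EpiSCs of the differentiating cells, while its title and day label give 2i and day 0. Results are given with these libraries, and the count without them follows the first result.

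Embryonic stem cells in 2i, a medium that inhibits Mek and Gsk3, resemble the naive cells of the preimplantation epiblast, and Activin A with Fgf2 moves them toward the primed state of the epiblast after implantation. MicroRNAs (miRNAs) are short RNAs cut from hairpins that lower the output of mRNAs which pair with their seed, the bases 2 to 8 of the mature strand. The miR-290 cluster is the leading miRNA cluster of mouse embryonic stem cells, the miR-302 and miR-367 cluster is known from primed cells, and let-7 is a family of differentiated cells whose precursors are bound by Lin28 in pluripotent cells.

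The mature sequences below (RefSeq, table of build GRCm38.p6, 5′ to 3′, seed in capitals) are shown because these miRNAs share a seed with others from a different hairpin that moved differently. Among miRNAs with a matched sequence, the seed AAGUGCU is shared by different clusters. These are the miR-290 cluster (miR-295-3p, miR-294-3p and miR-291a-3p) and the miR-302 and miR-367 cluster (miR-302b-3p and miR-302d-3p).
miR-295-3p: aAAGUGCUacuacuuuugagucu
miR-294-3p: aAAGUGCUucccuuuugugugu
miR-291a-3p: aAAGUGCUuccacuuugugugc
miR-302b-3p: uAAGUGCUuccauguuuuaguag
miR-302d-3p: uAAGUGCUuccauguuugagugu
The first 3 lie on chromosome 7 (chr7:3220773-3220841, chr7:3220641-3220724 and chr7:3218919-3219000) and the other pair on chromosome 3 (chr3:127545228-127545301 and chr3:127545624-127545689), all on the plus strand outside annotated genes; positions here and below are those of the hairpins in build GRCm38.

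The seed AUUGCAC is carried by miRNAs of the miR-17-92 (miR-92a-3p), miR-106a-363 (miR-363-3p), miR-302 and miR-367 (miR-367-3p) and miR-106b-25 (miR-25-3p) clusters and by miR-32-5p. The seed AAAGUGC is carried by miR-17-5p, by miR-20b-5p of the miR-106a-363 cluster, and by miR-106b-5p and miR-93-5p of the miR-106b-25 cluster.
miR-92a-3p: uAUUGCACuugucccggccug
miR-363-3p: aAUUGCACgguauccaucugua
miR-367-3p: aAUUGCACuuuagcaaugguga
miR-25-3p: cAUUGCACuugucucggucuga
miR-32-5p: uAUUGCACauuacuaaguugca
miR-17-5p: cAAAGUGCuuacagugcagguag
miR-20b-5p: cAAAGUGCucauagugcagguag
miR-106b-5p: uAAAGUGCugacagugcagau
miR-93-5p: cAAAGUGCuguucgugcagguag
miR-363-3p and miR-20b-5p come from 1 intergenic cluster on the X chromosome (chrX:52741693-52741767 and chrX:52742113-52742192, minus strand), and miR-17-5p from an exon of Mir17hg (chr14:115043671-115043754, plus strand). miR-25-3p (chr5:138165321-138165404, exonic), miR-93-5p (chr5:138165523-138165610, exonic) and miR-106b-5p (chr5:138165737-138165818, intronic) all lie in Mcm7 on the minus strand. miR-367-3p lies at chr3:127545733-127545807 (plus strand, intergenic), and miR-32-5p in an intron of Tmem245 (chr4:56895229-56895298, minus strand).

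The miR-181, let-7, miR-204 and miR-211, miR-34 and miR-26 families each share 1 seed over several hairpins.
miR-181a-5p: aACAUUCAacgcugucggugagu
miR-181c-5p: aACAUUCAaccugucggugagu
miR-181d-5p: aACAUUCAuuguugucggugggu
let-7f-5p: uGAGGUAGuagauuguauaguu
let-7c-5p: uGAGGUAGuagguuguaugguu
let-7e-5p: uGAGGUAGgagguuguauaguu
miR-98-5p: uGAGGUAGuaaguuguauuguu
miR-211-5p: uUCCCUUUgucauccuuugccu
miR-204-5p: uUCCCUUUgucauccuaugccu
miR-34b-5p: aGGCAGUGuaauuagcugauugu
miR-34a-5p: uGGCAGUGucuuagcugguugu
miR-26a-5p: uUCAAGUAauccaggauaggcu
miR-26b-5p: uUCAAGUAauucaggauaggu
Positions of those described further are given with their values. miR-181d-5p lies beside miR-181c-5p in Nanos3 (chr8:84178716-84178787, minus strand), let-7c-5p in an intron of Mir99ahg (chr16:77599657-77599750, plus strand, 1 of 2 loci), miR-204-5p in an intron of Trpm3 (chr19:22750605-22750672, plus strand) and miR-26b-5p in an intron of Ctdsp1 (chr1:74394310-74394394, plus strand). miR-34b-5p (chr9:51103562-51103645, minus strand) and miR-34a-5p (chr4:150068454-150068555, plus strand) are intergenic.

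The abundant miR-127-3p of the Dlk1-Dio3 region and miR-488-3p, one of the largest rises, are shown for their place in the results.
miR-127-3p: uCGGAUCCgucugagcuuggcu
miR-488-3p: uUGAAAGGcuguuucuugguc

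The tables of both lines list 1063 miRNAs in common, of which 1005 were counted in at least 1 of the 8 libraries and 771 passed the filter on low counts. The libraries held 8876282 to 15700435 counts, so that a count of 0 allows up to 0.191 to 0.338 CPM (counts normalized to library size), depending on the library, and between 863 and 905 shared miRNAs were detected in each. Replicates of a group would need 12.0% to 16.5% of their counts moved between miRNAs to become alike, the 2 lines at the same day 13% to 27.9%, and day 0 and day 4 of the same line 31.8% to 46.9%. The ranges of replicates and of days did not overlap.

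At day 4 more than 4 in 10 tested miRNAs had changed in both lines. With the line as a block, 191 of 771 miRNAs were higher at day 4 (24.8%) and 182 were lower (23.6%), by edgeR's quasi-likelihood test at a Benjamini-Hochberg adjusted p of 0.05. A change was taken as common to both lines where it was called and both day 4 libraries lay above, or both below, both day 0 libraries in PGK and in E14. That held for 176 rises (22.8%) and 148 falls (19.2%). Each line's change was also tested, with 2 libraries against 2, in a joint fit of both lines that pools their spread. By that test 83 miRNAs were called higher in both (10.8%) and 72 lower in both (9.34%). The tests of the 2 lines share an error estimate, so they are not independent of each other. Of the 324 common changes (42.0% of those tested), 229 were also called in experiment diff2 alone and 222 in diff3 alone. The diff2 set leaves out the day 0 libraries labelled ESCs-EpiSCs. None had the opposite sign in either, but the definition of a common change already fixes that sign, apart from scaling. The median log2 change over all tested miRNAs was -0.20.

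The common rises had a median size of 1.97 on the log2 scale, and 85 of them were at least 4-fold, 29 at least 16-fold and 14 at least 64-fold. Among the common falls the median size was 2.02, with 76 of at least 4-fold, 24 of at least 16-fold and 2 of at least 64-fold. For all these libraries, which are bulk RNA, fewer cells that make a miRNA and less of it per cell cannot be told apart. Across the 771 miRNAs the log2 changes of the 2 lines had a Pearson r of 0.803 and a Spearman rho of 0.775, as a description over miRNAs that share libraries and scaling, and 640 (83.0%) had the same sign. The plot of both lines' changes shows the common rises and falls on either side.

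**Figure D1:**
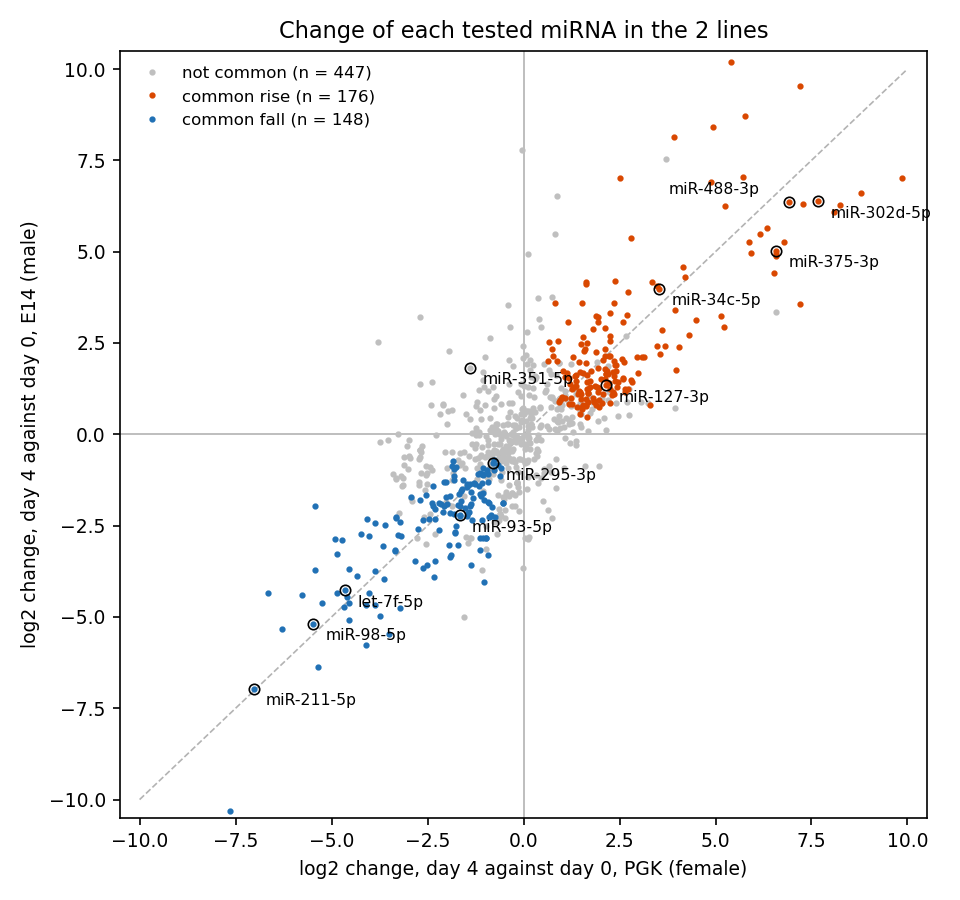
Each point is 1 of the 771 tested miRNAs, with its log2 change from day 0 to day 4 in PGK on the x axis and in E14 on the y axis. Orange points are the 176 rises and blue points the 148 falls common to both lines, grey points the other 447, and the dashed line marks equal change. miR-302d-5p lies far up in both lines, miR-211-5p far down, and miR-351-5p lower in PGK and higher in E14.

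The miR-302 and miR-367 cluster, which lies between the first and last of its hairpins at chr3:127545228-127545301 and chr3:127545733-127545807 (build GRCm38, plus strand, intergenic), held 3 of the 4 largest common rises at 50 CPM or more. All 10 of its mature miRNAs rose in both lines, against 22.8% of all tested miRNAs, with a median log2 change of 6.25. Its summed level was 141 to 500.0 CPM at day 0 and 7730 to 18398 CPM at day 4. The most abundant member, miR-302d-3p, stood at 55 and 63.6 CPM in PGK and 106 and 207 CPM in E14 at day 0, and 5693 and 5601 CPM in PGK and 6901 and 2388 CPM in E14 at day 4. Every day 4 library lay far above every day 0 library, the E14 diff3 library being the highest at day 0 and the lowest at day 4 (log2 change 5.73 ± 0.55 (SE), adjusted p = 4.25e-05, 53.1-fold). Its passenger strand miR-302d-5p was at 2.19 and 3.07 CPM in PGK and 2.46 and 7.64 CPM in E14 at day 0, and 588 and 489.6 CPM in PGK and 719 and 131 CPM in E14 at day 4 (log2 change 7.02 ± 0.74 (SE), adjusted p = 6.36e-05). Levels of miR-302a-5p were 3.0 and 5.68 CPM in PGK and 3.28 and 14.3 CPM in E14 at day 0, and 1035 and 1331 CPM in PGK and 899 and 299 CPM in E14 at day 4 (log2 change 7.08 ± 0.78 (SE), adjusted p = 8.21e-05). In both of these, as in miR-302d-3p, no day 4 library reached down to a day 0 value.

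The miR-290 cluster on chromosome 7, from which most molecules with the seed AAGUGCU come, lost share, and the members that were called fell by 2-fold or less. Of its 14 miRNAs 5 were called lower, 4 of them in both lines, and none was called higher, with a median log2 change of -0.81. Among all tested miRNAs 23.6% were lower and 19.2% fell in both lines, so these counts of falls are not far from those shares. The cluster took 19.9% to 29% of counts at day 0 and 11% to 17.6% at day 4. miR-295-3p (chr7:3220773-3220841, plus strand, intergenic), the most abundant miRNA of the 8 libraries, was at 124445 and 166928 CPM in PGK and 122445 and 163331 CPM in E14 at day 0, and 77979 and 88865 CPM in PGK and 78832 and 87365 CPM in E14 at day 4. The groups did not overlap in either line, and the fall was 1.73-fold (log2 change -0.79 ± 0.16 (SE), adjusted p = 0.00345). Without the E14 diff2 day 4 library the adjusted p was 0.0501, so that this 1 library decides the call. miR-292-5p fell from 29079 ± 4864 to 14560 ± 1084 CPM (mean ± SD, n = 4) (log2 change -0.99 ± 0.19 (SE), adjusted p = 0.00239). miR-293-3p fell from 13804 ± 2587 to 7502 ± 849 CPM (log2 change -0.87 ± 0.20 (SE), adjusted p = 0.0064). The call of miR-293-3p was lost without the library PGK diff3 day 4 (adjusted p = 0.0694) or E14 diff2 day 4 (adjusted p = 0.0782). miR-294-3p, at a log2 change of -1.18 ± 0.49, and miR-291a-3p, at -0.60 ± 0.24, did not pass the test (adjusted p = 0.0644 and 0.0595). With the 2 experiments of each line as a replicate block (4 pairs), miR-294-3p was called, with a log2 change of -1.26 (adjusted p = 0.00579), as it was without E14 diff2 day 0 (adjusted p = 0.0151) or E14 diff3 day 4 (adjusted p = 0.0193). With the experiment number as the replicate block, shared by both lines, miR-291a-3p was called too, at -0.60 (adjusted p = 0.0281), as it was among miRNAs with a mean of at least 10 CPM, at -0.64 (adjusted p = 0.0414). miR-290-3p alone had a positive log2 change, of 0.32 ± 0.49, and passed no test either.

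Summed over the 5 miRNAs with the seed AAGUGCU whose sequence was matched, the level fell from 159648 ± 28920 to 99435 ± 7597 CPM (log2 change -0.68 ± 0.17 (SE), adjusted p = 0.00726). Within that sum miR-302b-3p and miR-302d-3p together stood at 0.0671% to 0.219% of the level of miR-295-3p at day 0 and at 5.27% to 13.6% at day 4. miR-302a-3p, whose sequence was not matched, is in neither value. Its mean was 21219.5 counts per library, against 22052.8 for miR-302b-3p, so the part of the miR-302 and miR-367 cluster may be understated. The log2 ratio of miR-295-3p to miR-302d-3p in a library changed by -6.46 ± 0.51 (adjusted p = 4.03e-05) and that of miR-295-3p to miR-302b-3p by -6.61 ± 0.46 (adjusted p = 3.16e-05).

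The let-7 family, including miR-98, fell in nearly all its members. Of 23 mature miRNAs 20 were tested, and 18 fell in both lines, with a median log2 change of -4.19. None was higher, against 24.8% of all tested miRNAs, of which 19.2% fell in both lines. Together the family took 1.74% to 4.25% of counts at day 0 and 0.0965% to 0.202% at day 4. let-7f-5p, its most abundant member (chr13:48537829-48537917, minus strand, in an exon of 6720427I07Rik, 1 of 2 loci), was at 15627 and 19733 CPM in PGK and 5419 and 6369 CPM in E14 at day 0, and 774 and 622 CPM in PGK and 327 and 285 CPM in E14 at day 4. Day 0 levels in PGK were above those in E14, and all 4 day 4 libraries were below all 4 day 0 libraries (log2 change -4.47 ± 0.27 (SE), adjusted p = 5.97e-06, 22.1-fold). let-7i-5p went from 4999 ± 1560 to 193 ± 48.5 CPM (log2 change -4.70 ± 0.33 (SE), adjusted p = 7.36e-06). let-7g-5p went from 3551 ± 648 to 129.9 ± 39.3 CPM (log2 change -4.82 ± 0.32 (SE), adjusted p = 7.36e-06) and let-7d-5p from 1967 ± 1221 to 58.9 ± 25.1 CPM (log2 change -4.93 ± 0.36 (SE), adjusted p = 7.36e-06). miR-98-5p, which carries the same seed and lies in an intron of Huwe1 (chrX:151913214-151913321, plus strand), had 1352 and 1428 CPM in PGK and 714 and 329 CPM in E14 at day 0, and 33 and 29.1 CPM in PGK and 16.7 and 11.9 CPM in E14 at day 4 (log2 change -5.33 ± 0.41 (SE), adjusted p = 1.02e-05).

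The 3 smallest changes of the family were those of both arms of let-7e and of let-7c-5p. let-7e-5p, from an intron of Spaca6 (chr17:17830352-17830444, plus strand), fell 2.68-fold only (log2 change -1.42 ± 0.30 (SE), adjusted p = 0.00399). In diff3 alone it was not called (adjusted p = 0.147). Its neighbours in the same host gene, miR-99b-5p and miR-125a-5p, had log2 changes of 0.91 ± 0.37 and 0.76 ± 0.31 (adjusted p = 0.0617 and 0.0611). With the replicate block of 4 pairs miR-99b-5p was called, at 0.96 (adjusted p = 0.034), as it was without PGK diff3 day 0 (adjusted p = 0.00806) or PGK diff2 day 4 (adjusted p = 0.0343). miR-125a-5p was called with the experiment number as the replicate block, at 0.76 (adjusted p = 0.0425), and without PGK diff3 day 0 (adjusted p = 0.0403). let-7c-5p was at 1370 and 1255 CPM in PGK and 134 and 195 CPM in E14 at day 0, and 349 and 373 CPM in PGK and 192 and 325 CPM in E14 at day 4, so that the days did not overlap in PGK and did in E14, and the test of both lines did not call it (log2 change -0.61 ± 0.54 (SE), adjusted p = 0.369). let-7e-3p was not called either, at -0.49 ± 0.46. The ratio of let-7c-5p to let-7f-5p changed by 3.85 ± 0.48 (adjusted p = 2.54e-04) on the log2 scale and that of let-7e-5p to let-7f-5p by 3.04 ± 0.26 (adjusted p = 4.07e-05). Summed over the seed GAGGUAG, let-7 molecules went from 27498 ± 12716 to 1483 ± 498 CPM (log2 change -4.16 ± 0.22 (SE), adjusted p = 1.08e-06). let-7a-1-3p and let-7c-2-3p have equal counts in 7 of the 8 libraries, so their values are not separate measurements.

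miRNAs of the imprinted Dlk1-Dio3 region on chromosome 12, a large group of hairpins made from the maternally expressed RNAs Rian and Mirg and from an antisense transcript of Rtl1, gained more of the counts than any other list. Of 108 such miRNAs 103 were tested: 76 were higher, 71 of them in both lines, against 24.8% and 22.8% of all tested miRNAs. None of the 103 was lower, and their median log2 change was 1.53. Their share was 8.25% to 11.9% of counts at day 0 and 26.6% to 37.6% at day 4. They make up 71 of the 176 common rises (40.3%), against 13.4% of all tested miRNAs. miR-127-3p (chr12:109592846-109592915, plus strand), the most abundant of them, was at 36348 and 24945 CPM in PGK and 36484 and 27839 CPM in E14 at day 0, and 155975 and 116225 CPM in PGK and 98577 and 65569 CPM in E14 at day 4. Day 4 libraries were all above day 0 libraries, and the 2 highest were those of PGK (log2 change 1.75 ± 0.25 (SE), adjusted p = 4.69e-04). miR-434-3p rose from 9309 ± 1507 to 27162 ± 4428 CPM (log2 change 1.53 ± 0.20 (SE), adjusted p = 2.66e-04). miR-411-5p rose from 8321 ± 2701 to 25959 ± 6970 CPM (log2 change 1.62 ± 0.30 (SE), adjusted p = 0.00203) and miR-381-3p from 3413 ± 1044 to 13387 ± 3521 CPM (log2 change 1.95 ± 0.30 (SE), adjusted p = 7.07e-04). miR-541-5p, the second in abundance, was called (log2 change 1.70 ± 0.41 (SE), adjusted p = 0.00721), but in E14 the lower day 4 library, at 17669 CPM, lay within the day 0 range of 7460 to 17924 CPM. The largest rises at 50 CPM or more were miR-679-5p, at 117 and 54.6 CPM in PGK and 179 and 127 CPM in E14 at day 0, and 1136 and 779.5 CPM in PGK and 1123 and 495 CPM in E14 at day 4 (log2 change 2.94 ± 0.46 (SE), adjusted p = 7.07e-04), and miR-1193-3p (log2 change 2.60 ± 0.58 (SE), adjusted p = 0.00513). Among the 27 members not called, miR-136-5p and miR-3071-3p had negative log2 changes, of -0.21 ± 0.48 and -0.11 ± 0.48. Their mean counts per library were close, at 12152 and 13239, as were those of their other arms, at 59166 and 54178. The hairpins may share reads, so these values, and their places in the counts of the list, may not be separate measurements. At the far end of the region, miR-1247-5p in an exon of Dio3os fell 11.1-fold (log2 change -3.47 ± 0.48 (SE), adjusted p = 3.82e-04), which stands outside the list and its counts.

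**Figure D2:**
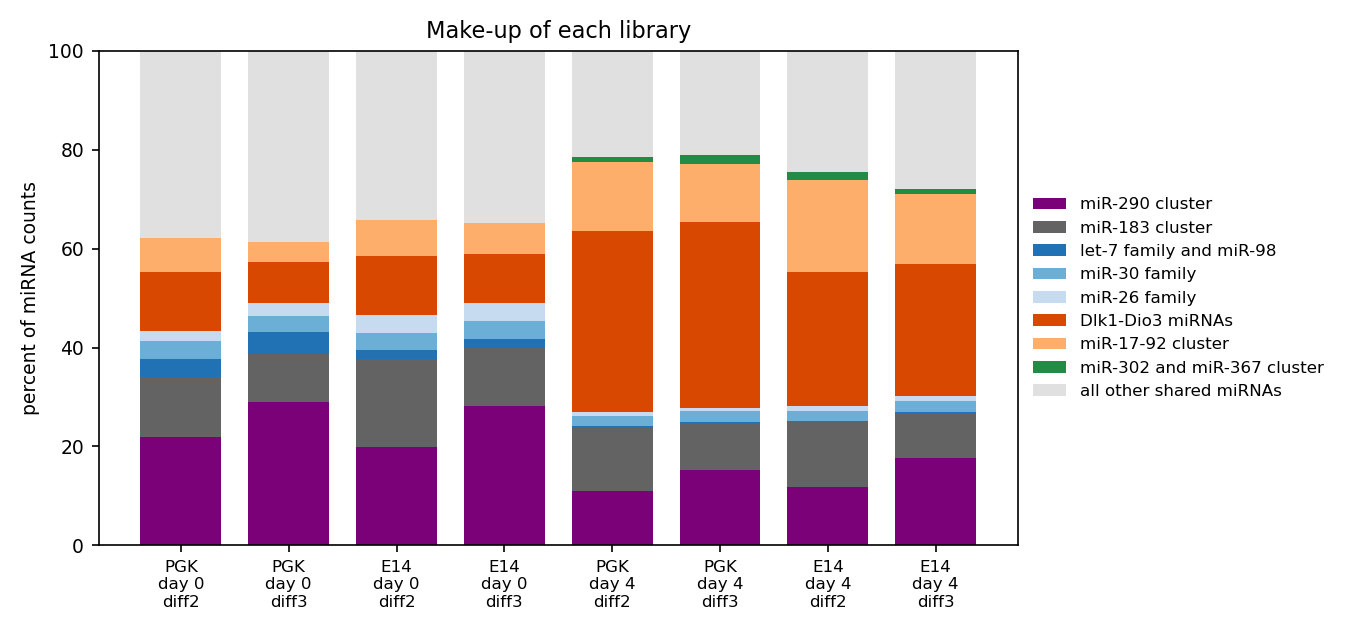
Stacked bars give the percent of miRNA counts that each group of miRNAs took in each of the 8 libraries, day 0 on the left and day 4 on the right. The Dlk1-Dio3 group went from at most 11.9% to at least 26.6%, and the miR-290 cluster from at least 19.9% to at most 17.6%.

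The 3 related clusters miR-17-92, miR-106a-363 and miR-106b-25 differed in the direction of their calls, although those of miR-106b-25 were few. The cluster miR-17-92 (Mir17hg on chromosome 14) is known for promoting proliferation. In its list 9 of 14 miRNAs were higher and none lower, against 24.8% and 23.6% of all tested miRNAs, with a median log2 change of 1.16. The list was matched by name without the hairpin copy number. It can thus include strands from the copies of miR-19b and miR-92a in the miR-106a-363 cluster, and its count may mix both loci. miR-92a-3p was at 65387 and 35724 CPM in PGK and 65133 and 54614 CPM in E14 at day 0, and 156723 and 103699 CPM in PGK and 193180 and 108219 CPM in E14 at day 4. All day 4 libraries exceeded all day 0 libraries (log2 change 1.35 ± 0.25 (SE), adjusted p = 0.00221). In contrast miR-17-5p and miR-19b-3p of the same cluster had log2 changes of 0.46 ± 0.29 and 0.40 ± 0.26 (adjusted p = 0.208 and 0.212). miR-92a also has a hairpin in the miR-106a-363 cluster, and counts of its mature strand cannot be assigned to one of them. In the X-linked miR-106a-363 cluster 7 of 8 rose in both lines (median 1.63), against 22.8% of all tested miRNAs. miR-363-3p (chrX:52741693-52741767, minus strand) was at 900.3 and 810.2 CPM in PGK and 3491 and 3427 CPM in E14 at day 0, and 4554 and 3655 CPM in PGK and 7048 and 5472 CPM in E14 at day 4. Day 0 levels in E14 were nearly those of PGK at day 4 (log2 change 1.56 ± 0.34 (SE), adjusted p = 0.0042; 2.26 ± 0.34 in PGK and 0.86 ± 0.33 in E14).

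The miR-106b-25 cluster, within Mcm7 on chromosome 5, had 2 of 6 lower, 1 of them in both lines, and none higher (median -0.47). Among all tested miRNAs 23.6% were lower, so this count alone is not far from that share. miR-93-5p (chr5:138165523-138165610, minus strand) was at 4640 and 9005 CPM in PGK and 14288 and 18248 CPM in E14 at day 0, and 2146 and 2149 CPM in PGK and 4118 and 2882 CPM in E14 at day 4. Its groups did not overlap in either line (log2 change -1.94 ± 0.29 (SE), adjusted p = 6.02e-04). From the same host, miR-25-3p had a log2 change of -0.34 ± 0.28 (adjusted p = 0.323) and miR-106b-5p, whose days overlap in PGK, of -1.22 ± 0.38 (adjusted p = 0.0238). The call of miR-106b-5p was lost without the library PGK diff3 day 0 (adjusted p = 0.118), PGK diff2 day 4 (adjusted p = 0.0673) or E14 diff2 day 4 (adjusted p = 0.0936). Against miR-93-5p, which shares its seed AAAGUGC, miR-20b-5p changed by 3.25 ± 0.29 (adjusted p = 4.07e-05) and miR-17-5p by 2.38 ± 0.38 (adjusted p = 0.00109) on the log2 scale of the ratio. The summed level of the seed AAAGUGC went from 14806 ± 7040 to 6415 ± 2001 CPM (log2 change -1.14 ± 0.25 (SE), adjusted p = 0.00456). For AUUGCAC, in which miR-92a-3p leads, the sum rose from 74119 ± 18628 to 159591 ± 47771 CPM (log2 change 1.11 ± 0.24 (SE), adjusted p = 0.00434).

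The comparison of same-seed miRNAs was then made for all 170 pairs with a mean of at least 20 counts each, which was added after these values had been seen. The log2 ratio of the pair in each library, which does not depend on library scaling, was tested with limma and the line as a block. It changed in 74 pairs (43.5%), over 30 of 64 seeds. In 69 of these pairs the day 4 ratios lay outside the day 0 ratios in each line. Pairs of 1 seed share members and are not independent. Among all single miRNAs tested 24.8% were called higher and 23.6% lower, and pairs of different seeds were not tested. Whether the share of changed pairs is particular to miRNAs with a shared seed thus cannot be told. For 6 seeds a common rise and a common fall stood side by side. The first 3 were those of miR-295-3p, miR-92a-3p and miR-93-5p given above. The others were AGGAGCU, with miR-28a-5p higher (1.38 ± 0.35) and miR-708-5p lower (-1.66 ± 0.33), CCAUCGA, with miR-181a-1-3p higher (3.66 ± 0.73) and miR-181c-3p lower (-1.95 ± 0.41), and CUGUUCU, with miR-26b-3p higher (1.01 ± 0.33) and miR-26a-2-3p lower (-1.30 ± 0.32). The call of miR-26b-3p was lost without each of 6 of the 8 libraries in turn, PGK diff3 day 0, PGK diff3 day 4, E14 diff2 day 0, E14 diff3 day 0, E14 diff2 day 4 and E14 diff3 day 4 (adjusted p 0.0549 to 0.0769). In the 4 libraries of 1 experiment alone, fewer of these calls held. In diff3 alone miR-28a-5p (adjusted p = 0.181), miR-708-5p (adjusted p = 0.0963) and miR-181c-3p (adjusted p = 0.214) were not called. miR-26a-2-3p and miR-26b-3p were called in neither experiment alone (adjusted p = 0.12 and 0.348 in diff2, 0.137 and 0.144 in diff3). miR-32-5p, the only common fall with the seed AUUGCAC, was not called in diff2 alone (-1.27 (adjusted p = 0.107)).

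**Figure D3:**
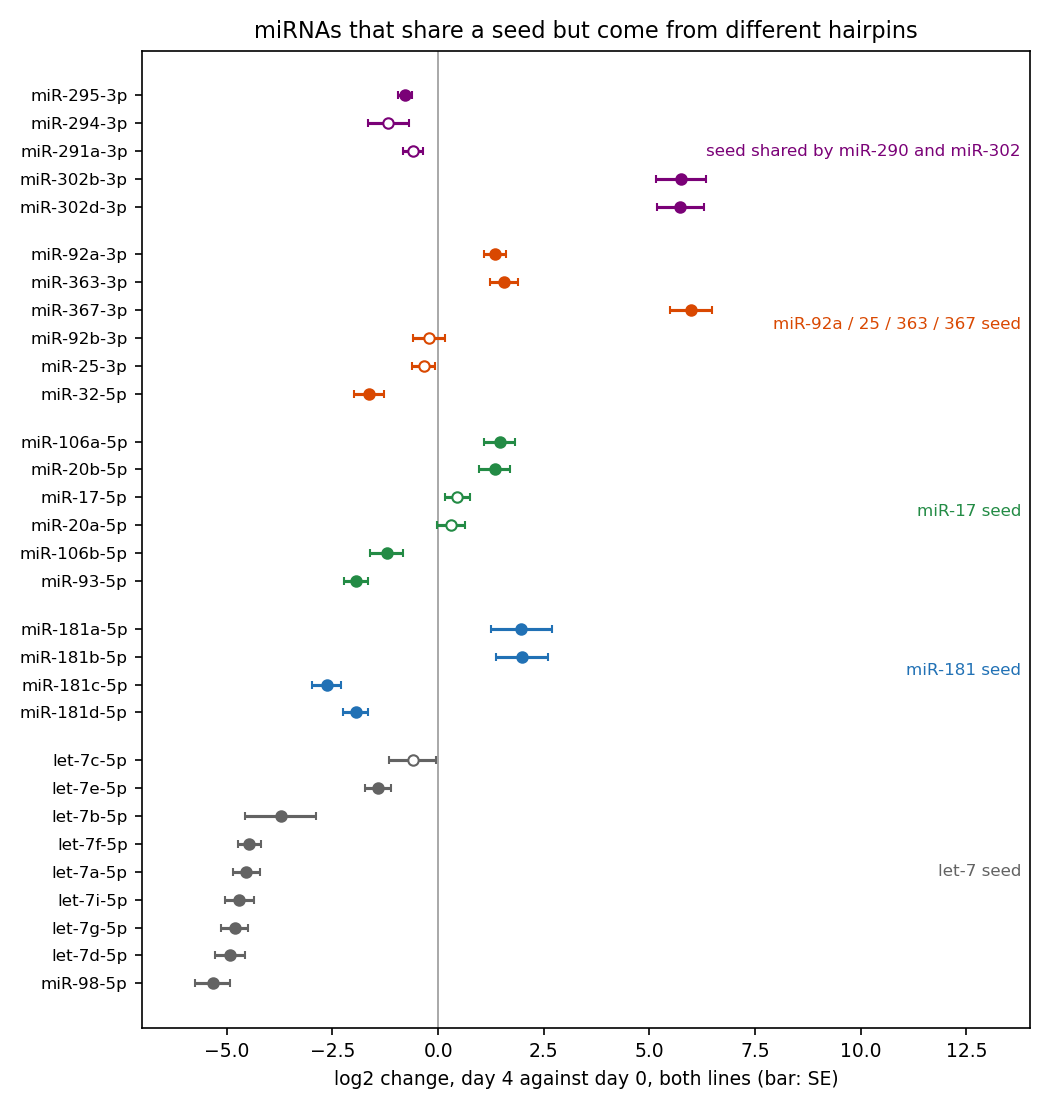
Points are log2 changes from day 0 to day 4 over both lines with SE bars, grouped and coloured by seed. Filled points passed the test, and open points did not. In AAGUGCU, miR-302b-3p and miR-302d-3p lie above 5 and miR-295-3p below 0, and in AUUGCAC miR-32-5p lies below 0 with miR-363-3p, miR-367-3p and miR-92a-3p above it.

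The miR-181 family, known from lymphocyte and vascular biology, split by locus. miR-181c-5p from an intron of Nanos3 (chr8:84178873-84178961, minus strand) was at 10081 and 9086 CPM in PGK and 16618 and 13226 CPM in E14 at day 0, and 2849 and 2187 CPM in PGK and 1657 and 1276 CPM in E14 at day 4. It fell 6.22-fold with no overlap of days (log2 change -2.64 ± 0.34 (SE), adjusted p = 2.45e-04), as did its cluster partner miR-181d-5p (log2 change -1.94 ± 0.29 (SE), adjusted p = 6.36e-04). miR-181a-5p, from other chromosomes (chr1:137966455-137966541 is 1 of 2 loci), was at 121 and 280.4 CPM in PGK and 155 and 688 CPM in E14 at day 0, and 2523 and 816 CPM in PGK and 1186 and 376 CPM in E14 at day 4. Its call (log2 change 1.97 ± 0.73 (SE), adjusted p = 0.0455) rests on groups that overlap in E14. It was lost with the replicate block of 4 pairs, at 2.07 (adjusted p = 0.0653). The call of miR-181a-5p was lost without each of 5 of the 8 libraries in turn, PGK diff2 day 0, PGK diff3 day 0, PGK diff2 day 4, E14 diff2 day 0 and E14 diff2 day 4 (adjusted p 0.0796 to 0.123). The ratio of miR-181a-5p to miR-181c-5p changed by 4.64 ± 0.64 (adjusted p = 4.48e-04) on the log2 scale. The seed ACAUUCA as a whole went from 15379 ± 3366 to 4427 ± 2089 CPM (log2 change -1.84 ± 0.36 (SE), adjusted p = 0.00222).

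The miR-34 and miR-449 family, whose miR-34 members are targets of p53, also differed between loci. Of 9 tested, 7 rose in both lines (median 3.76), against 22.8% of all tested miRNAs. The 2 that did not rise were both arms of miR-34a. miR-34c-5p (chr9:51103034-51103110, minus strand, intergenic) was at 235 and 334 CPM in PGK and 202 and 175 CPM in E14 at day 0, and 3221 and 3305 CPM in PGK and 3879 and 2078 CPM in E14 at day 4. The groups were separated by several-fold (log2 change 3.75 ± 0.34 (SE), adjusted p = 3.26e-05). miR-34b-5p, from the same cluster, went from 5.38 ± 1.36 to 72.5 ± 25.9 CPM (log2 change 3.77 ± 0.44 (SE), adjusted p = 1.15e-04). miR-449a-5p, from an intron of Cdc20b, went from 0.499 ± 0.353 to 22.9 ± 3.33 CPM (log2 change 5.54 ± 0.55 (SE), adjusted p = 4.54e-05). miR-34a-5p was at 146 and 345 CPM in PGK and 272 and 389.8 CPM in E14 at day 0, and 282 and 245 CPM in PGK and 189.5 and 103 CPM in E14 at day 4 (log2 change -0.54 ± 0.44 (SE), adjusted p = 0.325). The ratio of miR-34a-5p to miR-34b-5p changed by -4.21 ± 0.53 (adjusted p = 2.54e-04) and that to miR-449a-5p by -6.15 ± 0.50 (adjusted p = 4.07e-05).

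Of miR-211 and miR-204, both from introns of Trpm genes, miR-211 fell the furthest of all miRNAs at 50 CPM or more. miR-211-5p, from an intron of Trpm1 and known from pigment cells (chr7:64205806-64205911, plus strand), was at 1241 and 1855 CPM in PGK and 1528 and 2359 CPM in E14 at day 0, and 7.85 and 15.8 CPM in PGK and 8.67 and 22.5 CPM in E14 at day 4. All day 4 values were below 2% of all day 0 values (log2 change -7.0 ± 0.51 (SE), adjusted p = 7.36e-06; -7.03 ± 0.75 in PGK and -6.97 ± 0.74 in E14). Its other arm miR-211-3p held 10 counts over the 4 day 4 libraries against a mean of 93.5 ± 42.8 CPM at day 0 (log2 change -8.72 ± 0.83, adjusted p = 4.25e-05). miR-204-5p, with the same seed, was at 8.85 and 9.58 CPM in PGK and 11.2 and 27.5 CPM in E14 at day 0, and 6.26 and 9.75 CPM in PGK and 11.7 and 21.7 CPM in E14 at day 4 (log2 change -0.21 ± 0.41 (SE), adjusted p = 0.682). The log2 ratio of miR-204-5p to miR-211-5p changed by 6.89 ± 0.29 (adjusted p = 1.12e-06).

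Among other large rises, miR-375-3p, best known from endocrine pancreas and pituitary (chr1:74900658-74900721, minus strand, intergenic), was at 4.63 and 10.8 CPM in PGK and 9.16 and 9.0 CPM in E14 at day 0, and 411 and 1059 CPM in PGK and 419 and 176 CPM in E14 at day 4 (log2 change 5.80 ± 0.63 (SE), adjusted p = 7.53e-05). miR-488-3p, from an intron of Astn1 (chr1:158505625-158505733, plus strand), was at 0.568 and 0.372 CPM in PGK and 1.94 and 0.739 CPM in E14 at day 0, and 46.6 and 70.1 CPM in PGK and 135 and 85.3 CPM in E14 at day 4 (log2 change 6.61 ± 0.53 (SE), adjusted p = 1.34e-05). For both, the lowest day 4 library exceeded the highest day 0 library more than 10-fold. miR-203-3p, a miRNA of keratinocyte differentiation, rose 8.23-fold (log2 change 3.04 ± 0.53 (SE), adjusted p = 0.00138). miR-21a-5p, an abundant miRNA linked to survival and proliferation (chr11:86584067-86584158, minus strand, Vmp1), was at 1903 and 2217 CPM in PGK and 2082 and 2134 CPM in E14 at day 0, and 10818 and 8399 CPM in PGK and 8838 and 9887 CPM in E14 at day 4. Its replicates were close together within each day (log2 change 2.19 ± 0.23 (SE), adjusted p = 6.13e-05). miR-18b-3p (log2 change 2.62 ± 0.45 (SE), adjusted p = 0.00129) belongs to miR-106a-363.

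Several miRNAs were close to the counting limit at day 0. miR-1298-5p had 3 counts over the 4 day 0 libraries and a mean of 32.8 ± 30.9 CPM at day 4, miR-670-3p 9 counts against 28.1 ± 24.6 CPM, miR-488-5p 3 counts against 11.8 ± 6.09 CPM and miR-448-3p 1 count against 6.89 ± 5.84 CPM. Each was called higher in both lines. Their spread at day 4 was about as large as the mean in 3 of these 4.

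The miR-200 family, which holds the epithelial state by acting on Zeb1 and Zeb2, rose in part: 5 of 10 in both lines, none lower, median 1.13. Among all tested miRNAs 22.8% rose in both lines. miR-200b-3p was at 403 and 1077 CPM in PGK and 1321 and 1411 CPM in E14 at day 0, and 3547 and 4097 CPM in PGK and 3006 and 4574 CPM in E14 at day 4 (log2 change 1.92 ± 0.38 (SE), adjusted p = 0.00263). The PGK diff2 day 0 library was the lowest. miR-429-3p of the same hairpin cluster, at 132 and 610.5 CPM in PGK and 485 and 1262 CPM in E14 at day 0, and 843 and 1257 CPM in PGK and 842 and 1183 CPM in E14 at day 4, was not called (log2 change 0.86 ± 0.54 (SE), adjusted p = 0.206), and its E14 diff3 day 0 library lay above all 4 day 4 libraries. miR-141-3p had a log2 change of 0.06 ± 0.54. In the miR-221 and miR-222 cluster 1 of 4, miR-221-5p (1.36 ± 0.47), was called higher, which is the share of all tested miRNAs (24.8%). The call of miR-221-5p was lost without each of 5 of the 8 libraries in turn, PGK diff3 day 0, PGK diff2 day 4, E14 diff2 day 0, E14 diff2 day 4 and E14 diff3 day 4 (adjusted p 0.0669 to 0.106).

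Large falls outside let-7 and miR-211 included miR-499-5p, from an intron of the muscle myosin gene Myh7b (chr2:155622880-155622958, plus strand), at 70.5 and 107 CPM in PGK and 121 and 157 CPM in E14 at day 0, and 5.73 and 4.60 CPM in PGK and 6.95 and 3.88 CPM in E14 at day 4 (log2 change -4.39 ± 0.42 (SE), adjusted p = 4.25e-05). Both arms of miR-1981 fell, the 5p arm from 488 ± 227 to 27.8 ± 11.8 CPM (log2 change -4.11 ± 0.49 (SE), adjusted p = 1.49e-04) and the 3p arm 14-fold. miR-193a-3p fell 13.9-fold (log2 change -3.80 ± 0.49 (SE), adjusted p = 2.45e-04) and miR-147-3p 10.6-fold (log2 change -3.40 ± 0.65 (SE), adjusted p = 0.00224). In none of the 5 did a day 4 library reach a day 0 library of its line.

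**Figure D4:**
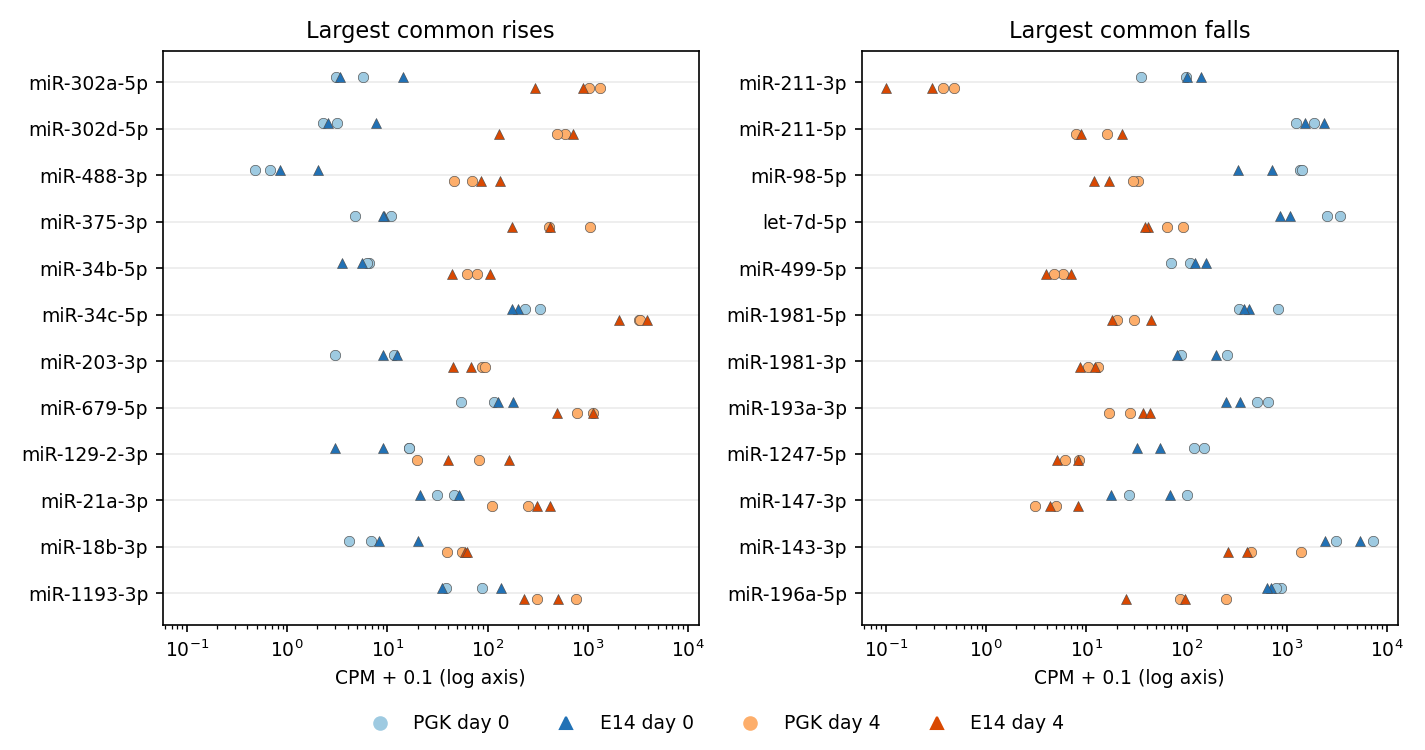
Each row is 1 miRNA, and each point 1 library, with CPM plus 0.1 on a log axis: blue for day 0, orange for day 4, circles for PGK and triangles for E14. Left, the 12 largest common rises at 50 CPM or more in the higher group, and right, the 12 largest common falls, with at most 2 per list and hairpin. In each row the days separate within each line, although in miR-129-2-3p the lowest PGK day 4 library lies just above PGK day 0.

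miRNAs from the Hox clusters, which are known from axial patterning, were lower throughout: all 8 tested were called lower, 6 of them in both lines, with a median of -2.91. miR-196a-5p was at 887 and 783 CPM in PGK and 697 and 632 CPM in E14 at day 0, and 250.1 and 86 CPM in PGK and 96.2 and 24.7 CPM in E14 at day 4 (log2 change -2.88 ± 0.55 (SE), adjusted p = 0.00222). miR-10b-5p was at 1527 and 994 CPM in PGK and 671 and 2146 CPM in E14 at day 0, and 1065 and 130.5 CPM in PGK and 124 and 89.1 CPM in E14 at day 4: the PGK diff2 day 4 library stayed within the PGK day 0 range, while the others were about 5-fold or more below their line's day 0 libraries (log2 change -2.40 ± 0.81 (SE), adjusted p = 0.031). The call of miR-10b-5p was lost without the library PGK diff3 day 4 (adjusted p = 0.0673), E14 diff2 day 4 (adjusted p = 0.12) or E14 diff3 day 4 (adjusted p = 0.105). Of the many related hairpins in the intron of Sfmbt2 (chromosome 2), 30 of 55 tested were lower, 24 in both lines, and none was higher (median -1.38). The near-identical copies of these hairpins may share reads, so single members are uncertain. For both the Hox and the Sfmbt2 counts, the shares among all tested miRNAs were 23.6% lower and 19.2% lower in both lines. miR-467a-5p was at 357 and 384 CPM in PGK and 515 and 335 CPM in E14 at day 0, and 161 and 252 CPM in PGK and 59.1 and 123 CPM in E14 at day 4 (log2 change -1.53 ± 0.44 (SE), adjusted p = 0.0154). It lost its call in diff3 alone, with a log2 change of -0.92, and without the E14 diff2 day 4 library, with -1.08.

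Several abundant miRNAs of wide expression fell by 2-fold to 4-fold. miR-26a-5p (chr9:119031796-119031885, plus strand, an intron of Ctdspl, 1 of 2 loci) was at 18964 and 25229 CPM in PGK and 34382 and 33233 CPM in E14 at day 0, and 9808 and 5634 CPM in PGK and 9268 and 7414 CPM in E14 at day 4 (log2 change -1.77 ± 0.25 (SE), adjusted p = 4.39e-04). In contrast, miR-26b-5p with the same seed, from an intron of Ctdsp1, was at 876 and 1608 CPM in PGK and 1566 and 1723 CPM in E14 at day 0, and 1094 and 1444 CPM in PGK and 1169 and 1311 CPM in E14 at day 4 (log2 change -0.19 ± 0.30 (SE), adjusted p = 0.623). Their log2 ratio changed by -1.63 ± 0.34 (adjusted p = 0.00435). miR-16-5p, which restrains the cell cycle, fell from 22094 ± 4790 to 10364 ± 253 CPM (log2 change -1.09 ± 0.22 (SE), adjusted p = 0.00281). Its same-seed relative miR-195a-5p had a log2 change of 0.62 ± 0.32 (adjusted p = 0.127), and their log2 ratio changed by -1.69 ± 0.28 (adjusted p = 0.00117). miR-27b-3p fell 2.19-fold (log2 change -1.13 ± 0.21 (SE), adjusted p = 0.00203), miR-30a-5p 2.16-fold (log2 change -1.11 ± 0.22 (SE), adjusted p = 0.00263), miR-101a-3p 4.04-fold (log2 change -2.01 ± 0.25 (SE), adjusted p = 1.95e-04) and miR-301a-3p 2.61-fold (log2 change -1.39 ± 0.25 (SE), adjusted p = 0.00182).

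By list, the miR-30 family had 4 of 12 lower, the miR-23/27/24 clusters 4 of 10, the miR-101 family 4 of 5, and the list of miR-130 and miR-301 2 of 8 and that of miR-148 and miR-152 2 of 6, with none higher in any of these 5, against 24.8% higher and 23.6% lower among all tested miRNAs. The shares of miR-30, of miR-130 and miR-301 and of miR-148 and miR-152 are thus not far from the overall share, and neither of the 2 falls of miR-148 and miR-152 was common to both lines. The call of miR-101b-3p (log2 change -0.74 ± 0.27 (SE), adjusted p = 0.0455) was lost in 14 of the 18 alternatives, among them each that leaves out 1 library. The miR-15/16 family had 2 lower and 1 higher of 10, and the miR-26 family 2 lower and 1 higher of 4. In the miR-29 family none of 6 was called (median -0.86), and miR-29a-3p was at 158 and 668 CPM in PGK and 111 and 740.2 CPM in E14 at day 0, and 303 and 289.7 CPM in PGK and 226 and 319 CPM in E14 at day 4, so that the experiments were far apart at day 0 and close at day 4. In the miR-99/100 and miR-125 families 2 of 9 were higher, near the overall 24.8%, and none lower.

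**Figure D5:**
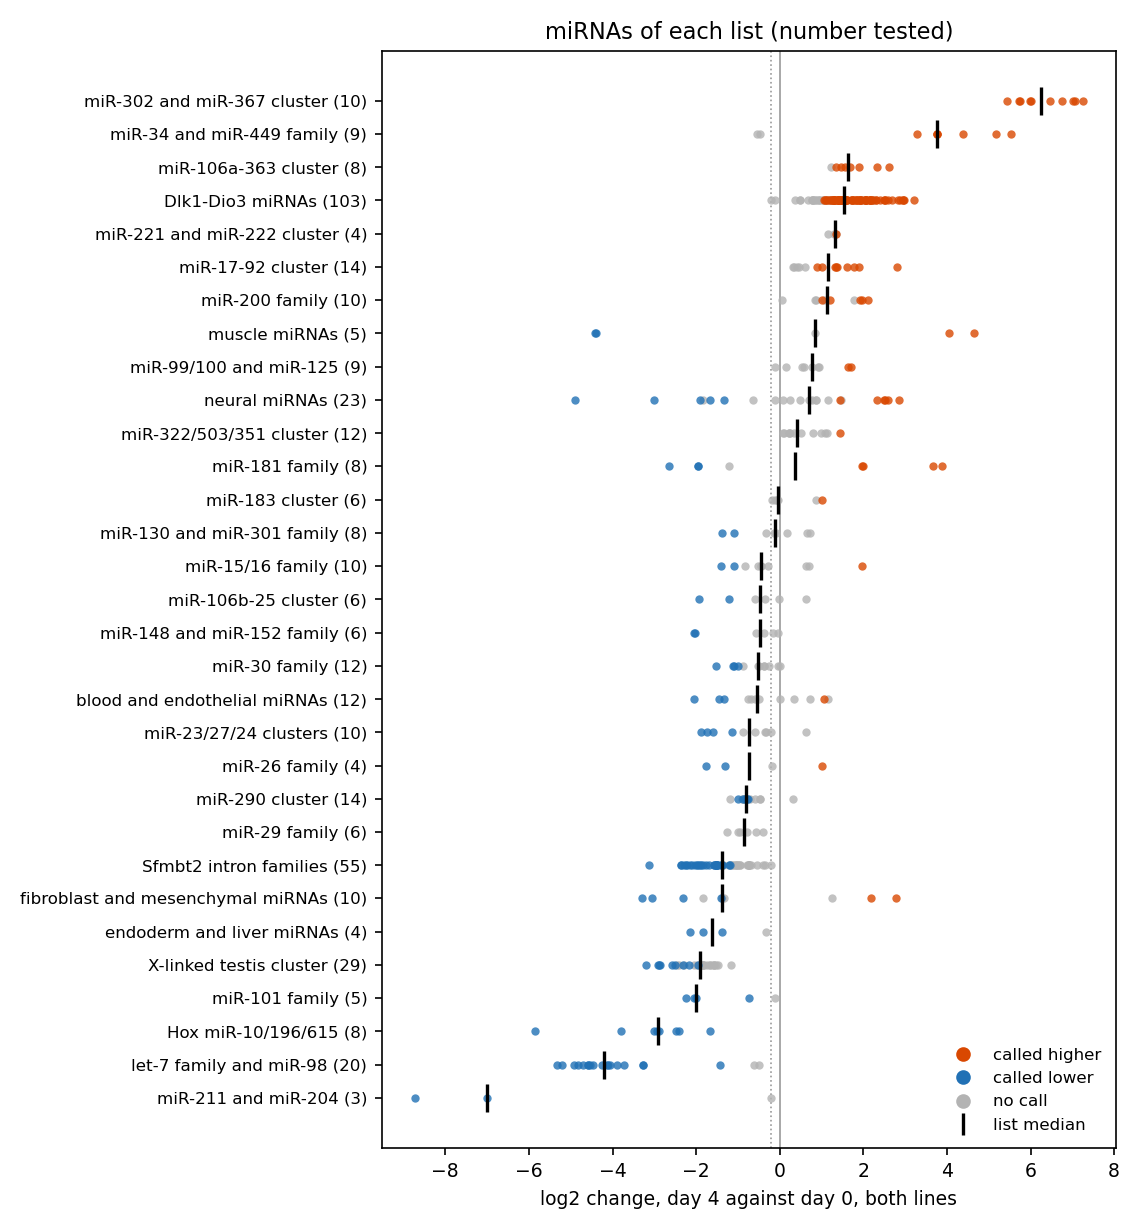
Each point is a tested miRNA, placed by its log2 change over both lines and grouped into 31 lists, which are ordered by their median (black bar). Orange and blue points were called higher and lower, the dotted line is the median of all tested miRNAs at -0.20. The miR-302 and miR-367 list lies at the top, with all 10 points to the right, and miR-211 with miR-204 at the bottom.

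Some abundant miRNAs showed no change that could be called. miR-182-5p, the second most abundant, was at 104531 and 85109 CPM in PGK and 151908 and 99918 CPM in E14 at day 0, and 134067 and 80114 CPM in PGK and 126949 and 62276 CPM in E14 at day 4 (log2 change -0.12 ± 0.27 (SE), adjusted p = 0.734). Its values differed more between experiments than between days. In the miR-183 cluster, to which it belongs, 1 of 6 was called, as higher (miR-96-3p, 1.02 ± 0.38, chosen after its value was seen), against 24.8% of all tested miRNAs. From the same cluster miR-183-5p had a log2 change of -0.17 ± 0.33. miR-298-5p was at 36242 and 40318 CPM in PGK and 21701 and 20456 CPM in E14 at day 0, and 16333 and 18109 CPM in PGK and 18180 and 25980 CPM in E14 at day 4, with days that overlap in E14 and not in PGK (log2 change -0.54 ± 0.27 (SE), adjusted p = 0.117). It was called without E14 diff3 day 4 (adjusted p = 0.0366). Of the 99 miRNAs with a mean of at least 1000 CPM, 28 rose and 27 fell in both lines, and for 13 the 95% interval of the change lay within 2-fold in either direction. These 13 were miR-19b-3p, miR-25-3p, miR-26b-5p, miR-30e-5p, miR-130a-3p, miR-130b-3p, miR-151-5p, miR-182-5p, miR-183-5p, miR-378a-3p, miR-423-3p, miR-423-5p and miR-744-5p.

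Counts of miRNAs with a matched sequence, summed by seed, gave 510 families. Of these, 142 were higher (27.8%) and 98 lower (19.2%), 129 and 81 of them in both lines. The 8 largest of these families held 51.5% of all counts. miRNAs without a matched sequence, such as miR-292-5p at a mean of 21819 CPM, are in no family. The seeds of miR-295-3p and of miR-92a-3p led, and the next 4 in abundance rest on miR-182-5p, miR-127-3p, miR-541-5p and miR-298-5p, all described above. The last 2 of the 8 both fell. UCACAGU, of miR-27, fell from 31165 ± 10584 to 14604 ± 4813 CPM (log2 change -1.10 ± 0.21 (SE), adjusted p = 0.00197). GUAAACA, of miR-30, fell from 25663 ± 1573 to 16056 ± 1059 CPM (log2 change -0.68 ± 0.18 (SE), adjusted p = 0.00959). Only miR-30a-5p, miR-30e-5p, miR-30c-5p and miR-384-5p are in this sum. miR-30d-5p and miR-30b-5p of the same family, at means of 67583.5 and 11707 counts per library, were not matched and are left out.

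The arm that a hairpin yields was also compared. Of 400 hairpins with both arms listed, 222 had enough counts. The log2 ratio of the 5p to the 3p arm changed in none of the 222 by limma (0.0%), with 39 at an unadjusted p under 0.05. The smallest adjusted p was 0.116, reached by miR-3072, miR-93, miR-324 and miR-32. With each experiment of a line as a replicate block, in 4 pairs, 3 were called (miR-124, miR-3072 and miR-32). For miR-93 the log2 ratio changed by -1.89 ± 0.40 (SE), as miR-93-5p fell while miR-93-3p had a log2 change of -0.02 ± 0.33. In 184 of the 222 hairpins the ratio changed by less than 1 on the log2 scale. Where both arms could be tested for their own level, in 272 hairpins, both were called in the same direction in 96, in opposite directions in 0, and only 1 of them in 85.

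No miRNA passed the test for a different change in the 2 lines by edgeR (0.0%, smallest adjusted p 0.454, 61 at an unadjusted p under 0.05), while DESeq2 called 5: miR-344b-3p, miR-344-3p, miR-351-5p, let-7b-5p and miR-503-5p. These are thus differences that depend on the tool. miR-351-5p was at 3536 and 2909 CPM in PGK and 166 and 516 CPM in E14 at day 0, and 1179 and 1274 CPM in PGK and 1270 and 1149 CPM in E14 at day 4, so that the lines were far apart at day 0 and alike at day 4. Its log2 change was -1.39 ± 0.53 in PGK and 1.83 ± 0.53 in E14. miR-344-3p was at 26.9 and 83.4 CPM in PGK and 4.91 and 4.44 CPM in E14 at day 0, and 43 and 39.7 CPM in PGK and 51.5 and 56.6 CPM in E14 at day 4, with the E14 day 0 libraries alone being low. let-7b-5p had log2 changes of -5.42 ± 0.78 in PGK and -1.97 ± 0.68 in E14, from a day 0 level that was more than 10 times higher in PGK. A cluster of testis miRNAs on the X chromosome had 9 of 29 lower, but only 1 in both lines. Among all tested miRNAs 23.6% were lower and 19.2% fell in both lines. The count of lower calls is thus not far from the former share. The summed level of the cluster was 44.1 to 80340 CPM at day 0 and 49 to 17001 CPM at day 4. Its most abundant member miR-871-3p was at 15010 and 21812 CPM in PGK and 111 and 12.3 CPM in E14 at day 0, and 3161 and 1037 CPM in PGK and 40.7 and 12.4 CPM in E14 at day 4, so that nearly all of it was in PGK. The call of miR-871-3p was lost without each of 6 of the 8 libraries in turn, PGK diff2 day 0, PGK diff3 day 0, PGK diff2 day 4, PGK diff3 day 4, E14 diff2 day 0 and E14 diff3 day 4 (adjusted p 0.0501 to 0.167).

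Markers of other cell types were read for the same libraries. miR-122-5p (liver) had 1 count in the 8 libraries and miR-206-3p (muscle) 1. miR-1a-3p (muscle) reached at most 0.744 CPM, miR-223-3p (myeloid) 1.94 CPM and miR-451a (erythroid) 1.23 CPM. miR-124-3p (neurons) was at 18.2 to 61.4 CPM at day 0 and 28 to 44 CPM at day 4, and miR-142-3p (blood) at 4.87 to 70.8 CPM at day 0 and 4.41 to 17.3 CPM at day 4. Of the 10 fibroblast and mesenchymal miRNAs tested 2 were higher, both arms of miR-21a, and 4 were lower, all from miR-143 and miR-145a. The shares among all tested miRNAs were 24.8% and 23.6%. The list summed to 5089 to 9373 CPM at day 0 and 8998 to 12548 CPM at day 4. Without miR-21a-5p alone the direction turned, to 2955 to 7469 CPM at day 0 and 599 to 1730 CPM at day 4. miR-143-3p was at 7342 and 3126 CPM in PGK and 5453 and 2437 CPM in E14 at day 0, and 1393 and 444 CPM in PGK and 398 and 262 CPM in E14 at day 4 (log2 change -3.04 ± 0.51 (SE), adjusted p = 0.00112). miR-199a-3p was at 20.1 to 295 CPM at day 0 and 22.1 to 42.3 CPM at day 4. The blood and endothelial list had 1 higher and 3 lower of 12, the latter near the overall 23.6%, and summed to 1192 to 1864 CPM at day 0 and 947 to 1106 CPM at day 4. The endoderm and liver list had 3 lower of only 4 tested, against 23.6% of all tested miRNAs. Its falls were led by miR-192-5p (log2 change -1.84 ± 0.44 (SE), adjusted p = 0.00735), and it summed to 1001 to 2960 CPM at day 0 and 262 to 642 CPM at day 4. The muscle list had 2 higher and 2 lower of 5, against 24.8% and 23.6% of all tested miRNAs, and is too short to judge by such counts. Its sum was 79 to 166 CPM at day 0 and 29.8 to 69.8 CPM at day 4. Within it miR-133a-3p rose from 2.12 ± 2.30 to 33.4 ± 16.8 CPM, and miR-499 fell as given above. Of 23 neural miRNAs 6 were higher and 5 lower, about the shares of all tested miRNAs (24.8% and 23.6%), with a sum of 1266 to 1795 CPM at day 0 and 1552 to 2637 CPM at day 4. The rises were led by miR-129-2-3p (2.86 ± 0.79) and miR-9-5p, which was at 194 and 121 CPM in PGK and 193 and 118 CPM in E14 at day 0, and 632 and 463 CPM in PGK and 1286 and 996 CPM in E14 at day 4 (log2 change 2.34 ± 0.39 (SE), adjusted p = 0.0011). The largest fall was that of miR-218-1-3p, from 14.3 ± 11.4 to 0.454 ± 0.319 CPM (-4.90 ± 0.74). The most abundant miRNAs that fell were miR-218-5p (-1.67 ± 0.37; not called in diff3 alone, adjusted p = 0.0757) and miR-138-5p (-1.32 ± 0.36). The call of miR-138-5p was lost without the library PGK diff3 day 0 (adjusted p = 0.0741) or E14 diff2 day 4 (adjusted p = 0.0705). The part of other cell types in these changes was not tested.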

How the data were processed

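The authors' deposited raw tables, 1 per line, hold a count per miRNA and library and were used as deposited. The normalized and variance-stabilized tables were not used. Per the labels' protocols, RNA was extracted with phenol and chloroform after Trizol, treated with DNase and made into Illumina small RNA libraries. The submitters' processing notes name CASAVA 1.8.2, DESeq2, GRCm38 and mm10. How reads were aligned, which annotation was used and how reads of near-identical copies were assigned is not given in the sources used here, so such miRNAs may share or split their reads.

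Samples were grouped by line and day, and the 1063 miRNAs listed in both tables were joined by name. Of these, 771 passed edgeR's filterByExpr by group and held 99.997% of counts. edgeR 4.0.16 (R 4.3.3) fitted TMM-scaled counts (factors 0.844 to 1.22) with the line as a block and 5 residual degrees of freedom, and 1 coefficient per group for single lines and their difference. P-values were adjusted by Benjamini-Hochberg over all miRNAs, seeds, hairpins or pairs tested. They measure the spread between 2 differentiation experiments per line, which the labels do not call separate cultures of independent origin. With the line as a block, that spread also takes in how far the 2 lines differ in their change. CPM are TMM-scaled, shares use plain totals, and SE is the log2 change over the root of F. Arm ratios and same-seed ratios (limma 3.58.1) used log2 of counts plus 0.5 and a mean of at least 20 counts for each miRNA. A 95% interval or a floor of 3 counts covers counting and replicate error of these libraries only.

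Sequences matched for 853 of the 1063 miRNAs (92.5% of counts) by name in the RefSeq table. Positions of hairpins and same-strand hosts were found for 1012 in GENCODE M21 (GRCm38).

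Members and 31 lists were chosen with earlier results of these data known. Named were the 12 largest common rises and falls at 50 CPM or more (at most 2 per list and hairpin), the 10 most abundant miRNAs, the 2 most abundant of each list, the 8 largest seeds, and up to 5 called interactions and arm ratios. Further list members and same-seed partners were named after their values were seen.

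The labels' experiment name pairs libraries: deviations of the 2 experiments correlated between groups at 0.304 to 0.622, all above 0.1. Alternatives were RLE and total-count scaling, other filters, replicate blocks, DESeq2 1.42.0, all 20 libraries, each experiment alone, and leaving out each library. Tested on simulated data for the line-block comparison, over 771 miRNAs of which 200 were changed, the fit recovered 16% of 2-fold and 79% of 4-fold changes, with 2 false calls of 97. The simulated counts were independent between libraries, without an effect shared by an experiment, and their changes ran up and down in equal number. The real libraries held more and larger changes and correlated deviations, so these rates may not hold for them.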

Additional observations from a re-analysis of the deposited data

Results flagged for a closer look

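Among the named miRNAs, 164 groups of 4 libraries (day 0 or day 4) were examined for 1 library far from the other 3, and 3 had one. Chance alone gives about 5% where the 4 libraries are alike. Each group mixes PGK and E14, which can differ in level, so 3 of 164 cannot be set against that rate. let-7i-5p at day 0 was lowest in E14 diff3, at 2689 CPM against 5420 to 5968 CPM, and without that library its log2 change was -4.91 (adjusted p = 4.95e-06). miR-26b-5p at day 0 was lowest in PGK diff2, at 876 CPM against 1566 to 1723 CPM, and without it the log2 change was -0.38 (adjusted p = 0.301). miR-10b-5p at day 4 was highest in PGK diff2, at 1065 CPM against 89.1 to 130.5 CPM, and without it the log2 change was -3.54 (adjusted p = 7.41e-04).

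Of the miRNAs named by rule, 1 moved in opposite directions in the lines in every library. miR-351-5p fell in both PGK experiments and rose in both E14 experiments, and its log2 change in PGK minus that in E14 was -3.22 ± 0.75 (SE). The adjusted p of that difference was 0.512 by edgeR and 0.0406 by DESeq2.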

How the results depend on the processing

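Of the 324 changes common to both lines none changed sign under any alternative that tested it. Their definition, no overlap of days in either line, fixes the sign in any part of these libraries, apart from scaling. The replicate block of 4 pairs left 319 of the 324 called and gave 208 miRNAs higher and 204 lower. It moved the count of arm ratios from 0 to 3 and, among single miRNAs named here or in the lists, took the call of miR-181a-5p and gave one to miR-294-3p, miR-99b-5p, miR-148a-3p, miR-221-3p and miR-222-5p. The replicate block by experiment number kept all 324, with 220 higher and 220 lower. DESeq2 kept 323, RLE scaling 319, total-count scaling 316, no filter 308 and all 20 libraries 316, while a mean of at least 10 CPM tested 232 and kept 229. Leaving out 1 library kept 268 to 298 and gave 165 to 189 miRNAs higher and 140 to 199 lower. Among 53 named common changes, 932 of 954 recomputed values kept their call and 22 lost it, in 5 miRNAs: miR-101b-3p, miR-15a-5p, miR-20b-5p, miR-295-3p and miR-467a-5p. The fit of all 20 libraries moved the median change of all miRNAs by 0.21, diff3 alone by 0.15, and leaving out single libraries by up to 0.13 (log2).

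DESeq2 called 5 differences between the lines instead of 0, and 133 seed families higher and 148 lower instead of 142 and 98. A pseudocount of 5 gave 4 hairpins with a changed arm ratio (let-7i, miR-3072, miR-367 and miR-93), and leaving out 1 library gave 0 to 1, the 1 being miR-93 without the PGK diff2 day 0 library. Same-seed pairs called were 77 with a pseudocount of 5, 71 with at least 100 counts per miRNA, 68 with the replicate block and 62 to 77 leaving out 1 library. The test of same-seed pairs and its alternatives were chosen after seeing the data. The cause of each difference was not tested. Depth limits miRNAs near 0.191 to 0.338 CPM, and with 2 experiments per line changes near 2-fold are often missed.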

Other observations

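Of the common changes, 50 rises and 59 falls concern miRNAs in none of the lists. The following were picked after their values were seen, among the abundant or large ones. miR-31-5p was at 107 and 95.4 CPM in PGK and 305 and 460.4 CPM in E14 at day 0, and 569 and 686 CPM in PGK and 824 and 992 CPM in E14 at day 4 (log2 change 1.94 ± 0.39 (SE), adjusted p = 0.0029). miR-149-5p rose 3.85-fold (log2 change 1.94 ± 0.44 (SE), adjusted p = 0.00558) and miR-335-3p, from the imprinted Mest locus, 2.17-fold (log2 change 1.12 ± 0.38 (SE), adjusted p = 0.0318). The call of miR-335-3p was lost without each of 4 of the 8 libraries in turn, PGK diff2 day 0, PGK diff2 day 4, E14 diff2 day 0 and E14 diff3 day 4 (adjusted p 0.0814 to 0.104). miR-107-3p and miR-103-3p, relatives that lie in Pank genes of coenzyme A synthesis and share a seed, fell 4.01-fold and 2.10-fold, and their log2 ratio (miR-103-3p to miR-107-3p) changed by 0.92 ± 0.29 (adjusted p = 0.0351). miR-103-3p was not called in diff3 alone (adjusted p = 0.0798). miR-140-3p, known from cartilage, fell 2.66-fold (log2 change -1.41 ± 0.27 (SE), adjusted p = 0.00233). miR-361-5p fell 3.48-fold (log2 change -1.80 ± 0.30 (SE), adjusted p = 0.00101). miR-5114, annotated within an exon of Scd2 (chr19:44303171-44303231, plus strand), was at 71.2 and 15 CPM in PGK and 65.2 and 18.8 CPM in E14 at day 0, and 1.43 and 0.632 CPM in PGK and 0.449 and 0.555 CPM in E14 at day 4 (log2 change -5.83 ± 0.72 (SE), adjusted p = 1.91e-04).

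Against 24.8% higher and 23.6% lower among all tested miRNAs, chromosome 12 had 80 of 128 tested miRNAs higher and chromosome 3, with the miR-302 and miR-367 cluster, 12 of 24, whereas chromosomes 8, 15 and 19 had none higher and 10 of 26, 10 of 26 and 9 of 13 lower. On chromosome 2, 33 of 79 were lower. On the X chromosome 23 of 92 were higher and 20 lower, which are about the overall shares.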
